A study of Mus musculus with 6 samples.

Results

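The fibroblast growth factor (FGF) receptors and FGFs of the growth plate were examined in bulk RNA sequencing of 3 control and 3 Idh1 mutant mouse libraries. The 10 genes were taken by name from a fixed list, drawn up with earlier results of these data known. They were Fgfr1, Fgfr2, Fgfr3, Fgfr4, Fgf2, Fgf7, Fgf9, Fgf10, Fgf18 and the feedback inhibitor Spry2, out of 46078 genes counted. All 10 were expressed highly enough to be tested. Each library was made from growth plate cartilage of the distal femur and proximal tibia at E18.5, and neither the labels nor the methods say whether a library is 1 animal. Mutant animals were Col2a1-Cre; Idh1 LSL/+, in which Cre, under the control of type II collagen regulatory elements that are active in chondrocytes, removes a stop cassette in front of a mutant Idh1. Controls were Idh1 LSL/+ without Cre, so that both groups carried the targeted allele and the presence of Cre and the expression of mutant Idh1 cannot be told apart. Cells of the dissected piece in which the Col2a1 elements were never active do not recombine the allele.

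FGFs are secreted ligands that bind receptor tyrosine kinases together with heparan sulfate, and the receptors relay the signal through the RAS-ERK cascade, STAT proteins and other routes. In the growth plate, Fgfr3 restrains chondrocyte proliferation and differentiation, and activating changes in it cause achondroplasia, the commonest form of short-limbed dwarfism. Fgf18 and Fgf9 are regarded as ligands of Fgfr3 in cartilage, Fgf18 being made largely by the perichondrium that surrounds the plate. C-type natriuretic peptide opposes the ERK branch of this signal in chondrocytes, and Sprouty and Dusp proteins are induced by FGF signals and damp them.

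The libraries held 23445687 to 30415773 counted reads. At that depth 3 counts, taken as the smallest level a library could show, were worth 0.0979 to 0.127 CPM (counts divided by a TMM-scaled library total), which covers counting error only. The tissue label was checked against cartilage genes: Col2a1 lay between 1923 and 5245 CPM, Acan between 711 and 895 CPM and Sox9 between 75.1 and 121 CPM. Col10a1, the collagen of hypertrophic chondrocytes, was present at 49.6 to 179 CPM, but summed markers of bone (34005 to 48150 CPM) and skeletal muscle (12250 to 18937 CPM) were also high. Most of the bone sum was Col1a1 alone (33199 to 47781 CPM), so that the sum says little of the other bone markers. Control 3 had the lowest sum of cartilage markers (4037 CPM against 6352 to 8969 CPM in the other 5 libraries) and the highest of muscle, and mutant 3 differed from the other 5 libraries in sex-linked transcripts. Mutant 3 had 26356 counts of Xist and 0 on 4 Y-linked genes, against 0 to 13 and 3871 to 5449 in the other 5. Sexes are not in the labels. The targeted gene Idh1 did not separate the groups, at 37.3, 39.2 and 65.4 CPM in controls and 47.6, 47.7 and 56.3 CPM in mutants (log2 fold change 0.10, standard error 0.192, edgeR adjusted p = 0.940). In bulk tissue, fewer cells of a type and less RNA per cell cannot be told apart.

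None of the 10 genes passed the threshold of an adjusted p under 0.05 (edgeR quasi-likelihood test, Benjamini-Hochberg adjustment over 16813 genes), where 32 genes or 0.19% of all tested did so, and none did with DESeq2, where 1.15% of all genes did. The largest difference was that of Fgf18, which was the only member whose 3 mutant libraries all lay below its 3 controls. Such separation was seen in 14.4% of all genes tested, in 7.58% with mutants lower and in 6.85% with mutants higher, so that 1 of 10 members is near the background. In the edgeR fit Fgf18 was also the only member with an unadjusted p under 0.05, which 8.64% of all genes had, 4.93% with mutants lower and 3.71% with mutants higher. The median log2 fold change of the members was -0.14, with 3 above and 7 below 0, beside -0.0026 for all genes tested.

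**Figure D1:**
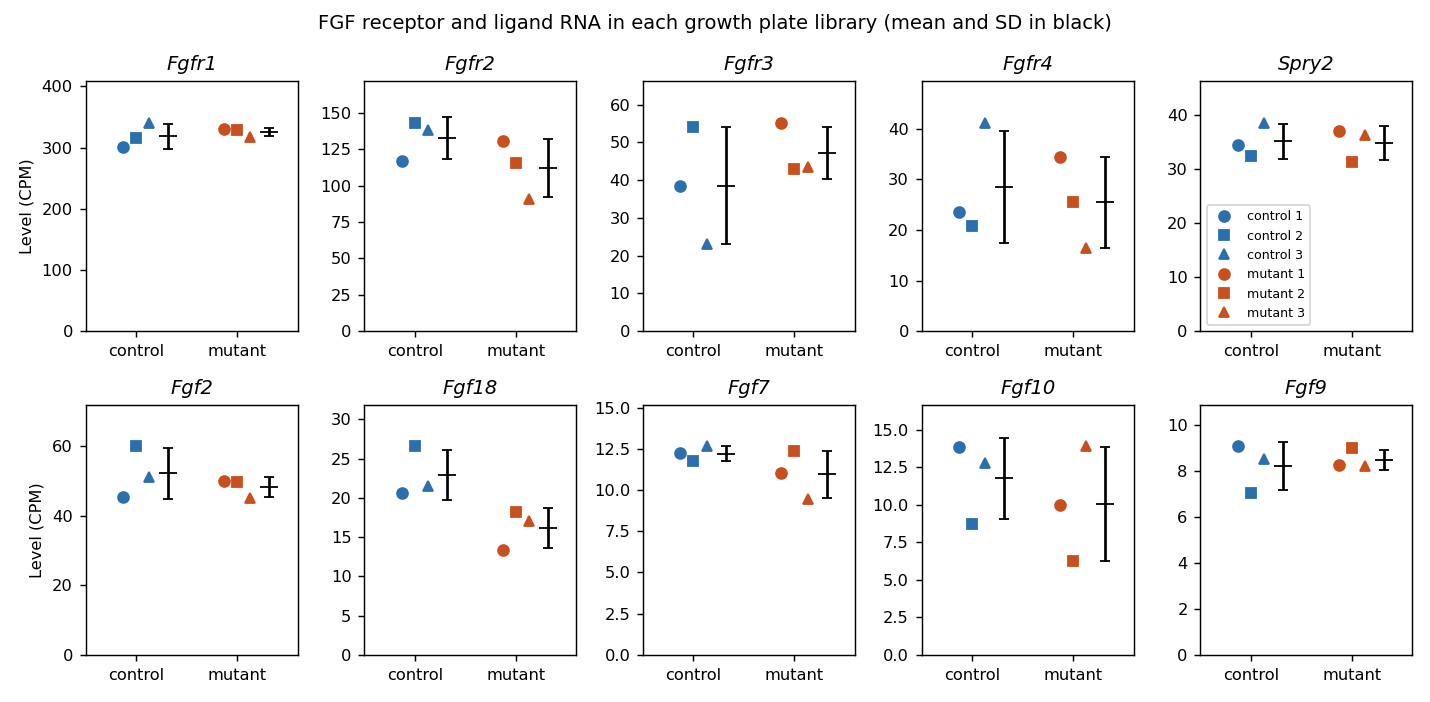
Level of each of the 10 genes in every library, in CPM, with 1 panel per gene and a vertical axis that starts at 0. Points are single libraries of the control and mutant groups, and bars give the mean ± SD (n = 3). Groups overlap in every panel except that of Fgf18, where mutants lie between 13.3 and 18.2 CPM and controls between 20.7 and 26.6 CPM.

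Compared per length, as RPKM (CPM divided by exon length in kilobases), Fgfr1 was the most abundant member by a wide margin. Its mean over the 6 libraries was 39.7 RPKM (SD 1.74), which placed it at rank 1106 of the 16813 genes tested, and it exceeded the next member, Fgfr2, in 6 of 6 libraries by 2.35-fold on average with no overlap of ranges. Fgfr2 (16.9 RPKM), Spry2 (16.7 RPKM) and Fgf18 (16.5 RPKM) formed a level group whose order was not resolved: Fgfr2 was above Spry2 in 4 of 6 libraries and Spry2 above Fgf18 in 3 of 6. Fgf18 was therefore the most abundant of the 5 ligands per length. Fgf18 exceeded Fgfr4 in 6 of 6 libraries, although their ranges overlapped. Fgfr4 (7.61 RPKM), Fgf2 (7.40 RPKM) and Fgfr3 (5.99 RPKM) followed, with Fgfr4 above Fgf2 in 2 of 6 libraries and Fgf2 above Fgfr3 in 5 of 6. The remaining ligands were the least abundant, at 3.57 RPKM for Fgf7, 2.37 RPKM for Fgf10 and 1.96 RPKM for Fgf9, and each exceeded the next in 5 of 6 libraries. The lengths are those of all annotated exons of a gene, so that a gene with long, little used exons is set too low on this scale. Reads on exon bases shared with another gene were left out, but the length includes those bases. This can set Fgfr1, Fgfr2, Fgfr3, Fgf2 and Fgf10 too low, by amounts that were not measured, here and in shares computed from RPKM.

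**Figure D2:**
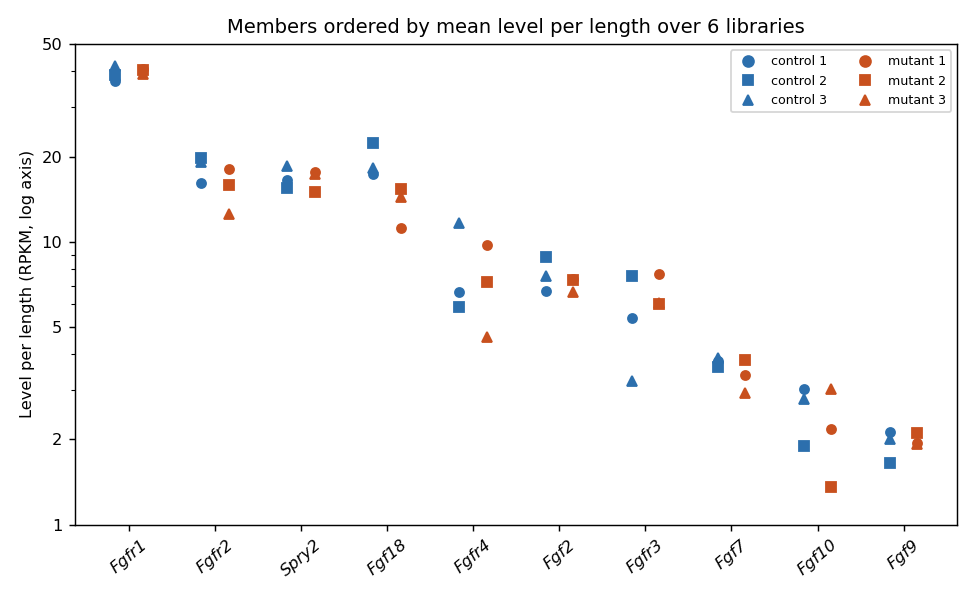
Levels per length of the 10 genes, ordered by their mean over 6 libraries, on a logarithmic axis in RPKM. Points are single libraries coloured by group. Fgfr1 stands apart at 39.7 RPKM, and Fgf9, at 1.96 RPKM, is the lowest.

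Among the receptors, Fgfr1, which in the growth plate is best known from hypertrophic chondrocytes and the surrounding mesenchyme, was the steadiest member across libraries. Fgfr1 (ENSMUSG00000031565, chr8:25513654-25575714, forward strand, GRCm38) was at 300, 315 and 341 CPM in controls and 330, 329 and 318 CPM in mutants. The mutant values fell inside the control range. The log2 fold change was 0.03 (standard error 0.083, 95% interval -0.15 to 0.22, edgeR adjusted p = 0.957), the narrowest interval of the 10 members.

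Fgfr2, a receptor of perichondrial and osteogenic cells, had its lowest value in a mutant library. Fgfr2 (ENSMUSG00000030849, chr7:130162451-133123350, reverse strand) was at 117, 143 and 138 CPM in controls and 130, 115 and 91.0 CPM in mutants. Mutant 1 lay inside the control range and mutants 2 and 3 below it, so that the groups overlapped. The log2 fold change was -0.24 (standard error 0.132, 95% interval -0.54 to 0.06, edgeR adjusted p = 0.680). With 1 library left out it ranged from -0.36 (without mutant 1) to -0.11 (without mutant 3), and the adjusted edgeR p from 0.510 to 0.985. The gene model of Fgfr2 is very long and shares exon bases with Ctbp2 on the same strand, and reads on the shared bases were not counted for either gene.

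Fgfr3, the receptor of proliferating chondrocytes, varied more between libraries of 1 group than between groups. Fgfr3 (ENSMUSG00000054252, chr5:33721674-33737068, forward strand) was at 38.5, 54.2 and 23.1 CPM in controls and 55.2, 43.0 and 43.4 CPM in mutants. Control 3 was the lowest library and control 2 was close to the highest, a 2.40-fold range over the 6 libraries. The log2 fold change was 0.29 (standard error 0.248, 95% interval -0.27 to 0.84, edgeR adjusted p = 0.819). It depended on single controls, being 0.03 without control 3 and 0.62 without control 2 (edgeR adjusted p = 0.512). The dispersion of Fgfr3 was higher than that of 78.8% of the genes tested, and a change of up to 1.80-fold lies inside its interval.

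Fgfr4, a receptor associated with developing skeletal muscle, showed a different order of libraries. Fgfr4 (ENSMUSG00000005320, chr13:55152640-55168759, forward strand) was at 23.5, 20.8 and 41.2 CPM in controls and 34.4, 25.6 and 16.4 CPM in mutants. Control 3, lowest for Fgfr3, was the highest library for Fgfr4, and mutant 3 was the lowest. The log2 fold change was -0.17 (standard error 0.291, 95% interval -0.82 to 0.49, edgeR adjusted p = 0.932), and it turned to 0.20 without control 3 and to 0.07 without mutant 3.

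The makeup of the receptor pool was computed as each receptor's share of the summed RPKM of the 4 receptors. Fgfr1 made up 53.9% to 56.8% of the pool in controls and 53.4% to 62.7% in mutants. Fgfr2 made up 24.7%, 27.4% and 25.2% in controls and 23.7%, 22.8% and 20.1% in mutants, which do not overlap, although the absolute levels of Fgfr2 did. Fgfr3 made up 8.27%, 10.5% and 4.24% in controls and 10.1%, 8.62% and 9.72% in mutants. The lowest Fgfr3 share, in control 3, went with the lowest Fgfr3 level. Fgfr4 made up 15.3% of the pool in control 3 and 7.40% to 12.8% in the other 5 libraries. Of the 4 shares only that of Fgfr2 separated the groups, and by level 14.4% of all genes tested did so. These shares depend on each other and were not tested. The gene counts do not separate the splice forms of the receptors that differ in the ligands they bind.

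Of the ligands, Fgf18 had the clearest difference between the groups. Fgf18 (ENSMUSG00000057967, chr11:33117430-33147400, reverse strand) was at 20.7, 26.6 and 21.6 CPM in controls and 13.3, 18.2 and 17.1 CPM in mutants, from 582, 814 and 597 counts and 314, 447 and 496 counts. All 3 mutant libraries were below all 3 controls. The means were 22.9 ± 3.17 and 16.2 ± 2.55 CPM (SD, n = 3 each), a log2 fold change of -0.50 (standard error 0.141, 95% interval -0.82 to -0.19), so that mutants held 0.706 of the control level (0.567 to 0.879). The unadjusted edgeR p was 0.00553, at rank 289 of the genes tested, and the adjusted p was 0.322. Without the low-count filter the log2 fold change was -0.51, its standard error 0.127 and the adjusted edgeR p 0.0328. That is the only setting of those tried in which a member passed the threshold, and there 259 genes did so. With DESeq2 the adjusted p of Fgf18 was 0.0941. Leaving out each library in turn gave log2 fold changes of -0.59 to -0.38, all in the same direction, with adjusted edgeR p of 0.277 to 0.556.

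Summed markers of other tissues were set beside the Fgf18 values. The 6 tendon and ligament markers summed to 3208, 3339 and 3441 CPM in controls and 2353, 2110 and 2472 CPM in mutants, also without overlap. Of these markers 5 of 6 (83.3%) were lower without overlap, against 7.58% of all genes tested. The other, Thbs4, overlapped at a log2 fold change of 0.02. In this list 1 gene, the tendon glycoprotein Tnmd, passed the threshold (edgeR adjusted p = 0.0374). The 8 markers of perichondrium and loose connective tissue, the tissue in which Fgf18 is best known, summed to 7176 to 8118 CPM in controls and 6458 to 9463 CPM in mutants and overlapped. Blood and immune markers summed to 566, 1413 and 636 CPM in controls and 348, 485 and 405 CPM in mutants, again without overlap. Members of that list lay on both sides of 0. Its erythroid genes had log2 fold changes of -1.44 (Hbb-bs), -1.30 (Hba-a1) and -1.67 (Alas2), while its immune genes were at 0.58 (Ptprc), 0.24 (Csf1r) and 0.09 (Cd68), and none of the 6 passed the threshold. The 6 skin epithelium markers were scarce and summed to 8.20, 17.2 and 14.9 CPM in controls and 7.54, 7.84 and 7.31 CPM in mutants, also without overlap. Krt5, a keratin of basal epidermis, passed the threshold (edgeR adjusted p = 0.0355), with 83, 242 and 153 counts in controls and 8, 0 and 11 in mutants. Of the 4 tested skin markers only Krt5 was lower without overlap (25%, against 7.58% of all genes). The sum therefore says little of the others. Krt10 overlapped at a log2 fold change of -0.04 and Epcam at 0.69, and Krt1 was lower but overlapped. Krt14 and Krt15 did not exceed 8 and 11 counts in any library and were not tested. Cartilage markers summed to 4037 to 8202 CPM in controls and 6384 to 8969 CPM in mutants and overlapped. The sums of hypertrophic cartilage, bone, skeletal muscle, endothelium and osteoclast markers overlapped too. The part of tendon, blood or skin cells in the Fgf18 difference was not tested.

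The sequence upstream of Fgf18 is shown, with that of Fgfr3, because these are the member with the clearest difference and the receptor whose level followed Col2a1. Promoter entries were found in RefSeq (GRCm38.p6) for 9 of the 10 members, and Fgfr1 is named only. Each stretch covers the 200 bases that end 51 bases before the annotated start in RefSeq, written in the direction of the gene. Capitals mark a GC box, GGGCGG or its complement CCGCCC, a motif bound by Sp family factors.
Fgf18, chr11:33147451-33147650, reverse strand: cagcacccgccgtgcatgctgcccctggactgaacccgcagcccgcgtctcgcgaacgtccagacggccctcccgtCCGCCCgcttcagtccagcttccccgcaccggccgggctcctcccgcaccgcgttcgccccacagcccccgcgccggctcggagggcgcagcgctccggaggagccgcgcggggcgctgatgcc
Fgfr3, chr5:33721474-33721673, forward strand, the first of 2 entries: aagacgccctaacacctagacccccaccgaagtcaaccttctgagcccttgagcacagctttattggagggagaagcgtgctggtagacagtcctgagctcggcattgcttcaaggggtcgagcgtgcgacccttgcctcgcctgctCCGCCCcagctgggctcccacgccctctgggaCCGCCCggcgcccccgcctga
The Fgf18 stretch is 77.5% G and C and holds 1 GC box, and the Fgfr3 stretch is 65% G and C and holds 2. A GC box was found in 24.6% of 32851 promoter stretches of that length. The core of the site for SOX factors, ACAAAG or CTTTGT, was in neither stretch and in 13.6% of all. Both strands were searched, the motifs do not overlap, and a match is a description of letters only.

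Fgf2, a ligand of broad receptor range held in the cartilage matrix, was at 45.2, 59.9 and 51.2 CPM in controls and 49.9, 49.7 and 45.003 CPM in mutants. Control 2 was the highest library and the groups overlapped (log2 fold change -0.11, standard error 0.108, 95% interval -0.35 to 0.13, edgeR adjusted p = 0.842). Fgf2 (ENSMUSG00000037225, chr3:37348346-37410108, forward strand) shares exon bases with Nudt6 on the opposite strand. Because strand was ignored in counting, reads on those bases were given to neither gene. The same holds for bases that Fgfr1, Fgfr3 and Fgf10 share with a gene on the opposite strand.

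Fgf7 and Fgf10, mesenchymal ligands of the epithelial form of Fgfr2, were both low. Fgf7 (ENSMUSG00000027208, chr2:126034658-126091185, forward strand) was at 12.3, 11.7 and 12.6 CPM in controls and 11.02, 12.35 and 9.48 CPM in mutants. Mutant 2 was inside the control range and the other mutants below it (log2 fold change -0.16, standard error 0.125, 95% interval -0.44 to 0.12, edgeR adjusted p = 0.799). Fgf10 (ENSMUSG00000021732, chr13:118669791-118792115, forward strand) was at 13.8, 8.71 and 12.8 CPM in controls and 10.002, 6.26 and 13.9 CPM in mutants. The highest and the lowest libraries of Fgf10 were both mutants. For Fgf10 the log2 fold change came to -0.22 (standard error 0.266, 95% interval -0.82 to 0.38, edgeR adjusted p = 0.887), which turned to 0.03 without mutant 2. With a covariate for Y-linked counts, in which mutant 3 differs from the rest, it was -0.58 (edgeR adjusted p = 0.710), and without mutant 3 it was -0.53. The unadjusted edgeR p with that covariate was 0.0423.

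Fgf9, a ligand required for growth of the proximal limb skeleton, was the least abundant member per length. Fgf9 (ENSMUSG00000021974, chr14:58070547-58112337, forward strand) was at 9.06, 7.05 and 8.53 CPM in controls and 8.26, 8.98 and 8.20 CPM in mutants. All mutant values lay inside the control range (log2 fold change 0.05, standard error 0.139, 95% interval -0.26 to 0.36, edgeR adjusted p = 0.960). Fgf9 and Fgf18, both regarded as ligands of Fgfr3, thus had values of opposite sign, but the difference between them was not tested.

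Spry2, an intracellular inhibitor that is induced by FGF signals and damps the ERK branch, was nearly level. Spry2 (ENSMUSG00000022114, chr14:105891949-105896819, reverse strand) was at 34.3, 32.3 and 38.5 CPM in controls and 36.9, 31.2 and 36.2 CPM in mutants. The groups overlapped over most of their range, and the log2 fold change was -0.01 (standard error 0.101, 95% interval -0.24 to 0.21, edgeR adjusted p = 0.990).

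**Figure D3:**
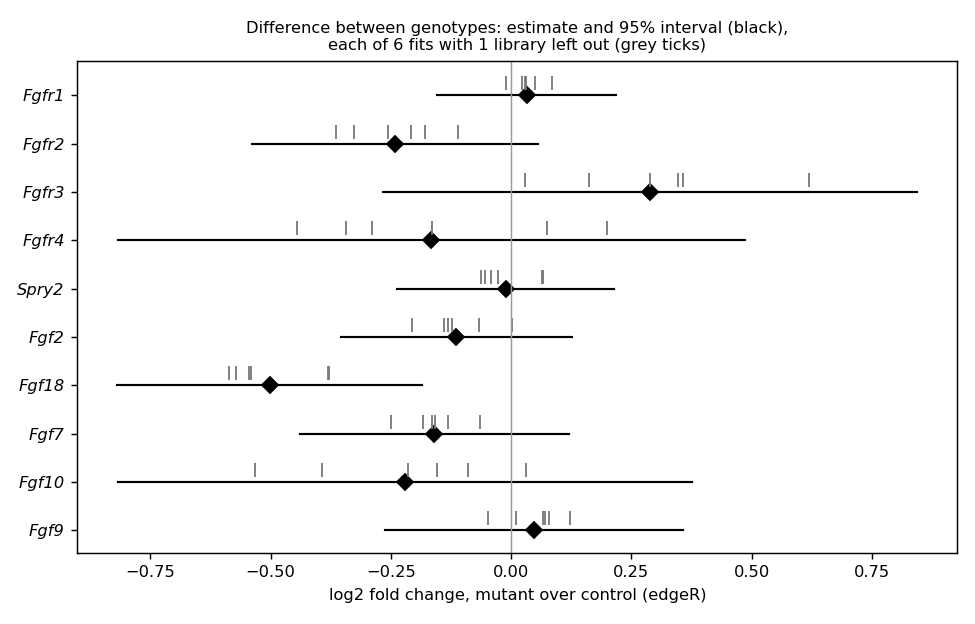
Log2 fold change of each of the 10 genes, mutant minus control, from edgeR. Black points and bars are estimates with 95% intervals, grey ticks the 6 fits that leave out 1 library each, and a vertical line marks 0. The interval of Fgf18 (-0.82 to -0.19) is the only one that leaves out 0, those of Fgfr4 (-0.82 to 0.49), Fgf10 and Fgfr3 are the widest, and that of Fgfr1 (-0.15 to 0.22) is the narrowest.

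The members were then described by the listed gene whose log2 CPM followed theirs most closely over the 6 libraries, out of 142 genes searched. These values describe 6 libraries that share depth and tissue makeup, and the highest of many correlations is high by selection. Fgfr3 was nearest to Col2a1, the collagen of cartilage (Pearson r = 0.982, Spearman rho = 1, and r = 0.916 without control 3). Fgfr4 was nearest to Sos2, an exchange factor of the RAS cascade (r = 0.998, rho = 1, and r = 0.995 without control 3), and next to Pax7 (r = 0.996), a marker of muscle stem cells named after its value was seen. Fgf18 was nearest to Hba-a1, an adult globin gene (r = 0.944, rho = 1), and next to Alas2 (r = 0.944) and Hbb-bs (r = 0.926), which are also erythroid genes.

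For the other members the nearest genes came from several lists. Fgfr1 was nearest to the heparan sulfate proteoglycan Gpc4 (r = 0.901, rho = 0.886), Spry2 to its paralog Spry1 (r = 0.957, rho = 0.943) and Fgf9 to the intracellular factor Fgf13 (r = 0.986, rho = 1). Fgf2 was nearest to the keratin Krt10 (r = 0.897, rho = 0.771). Fgf10 was nearest to the ubiquitin ligase Cbl (r = 0.803, rho = 0.6). Likeness rested on few libraries for Fgfr2 and the phosphatase Dusp5, whose r of 0.887 fell to 0.514 when the 2 libraries farthest from the median were left out, and for Fgf7 and Nppc, where r of 0.974 fell to 0.167.

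**Figure D4:**
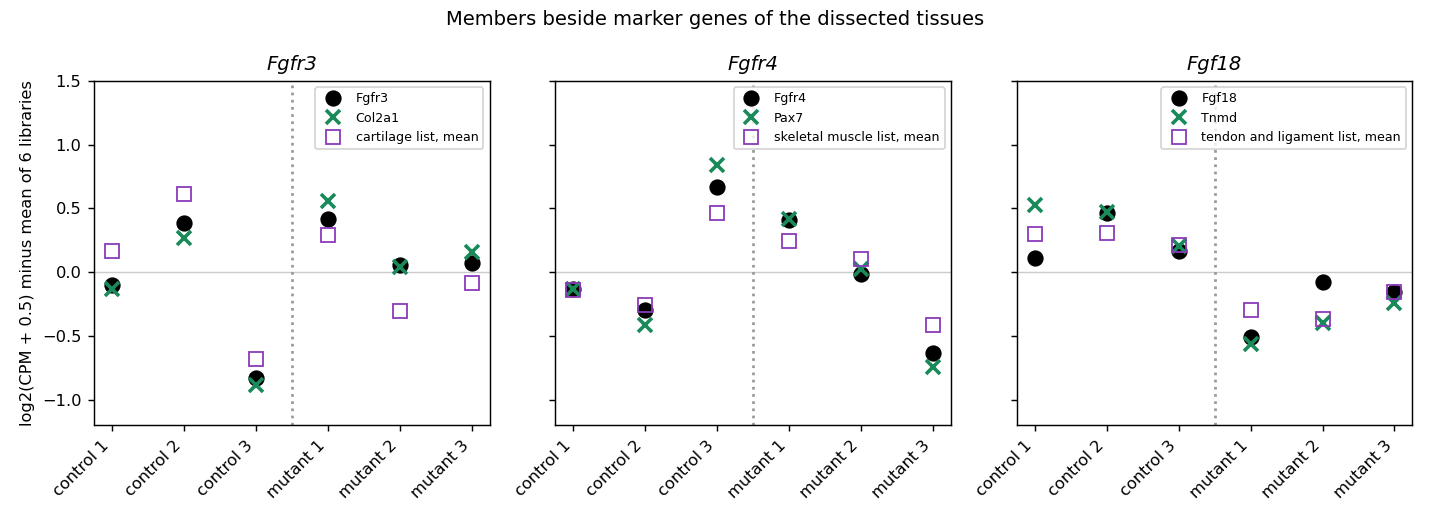
Fgfr3, Fgfr4 and Fgf18 in the 6 libraries, each as log2(CPM + 0.5) minus its mean over the libraries (black circles). Crosses give a marker gene (Col2a1, Pax7 and Tnmd) and squares the mean of its tissue list (cartilage, skeletal muscle, and tendon and ligament) on the same scale. Tnmd was named after its values were seen. The genes nearest to Fgf18 in pattern were the erythroid Hba-a1, Alas2 and Hbb-bs, which are not drawn. Control 3 is the lowest library for Fgfr3 (23.1 CPM) and the highest for Fgfr4 (41.2 CPM), and all 3 mutants are below all 3 controls for Fgf18, Tnmd and the tendon list.

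The rest of the pathway was taken from 7 lists of 87 genes, of which 76 were tested. These lists were drawn up with earlier results of these data known. None passed the threshold (0 of 76 by edgeR and 0 by DESeq2), which 0.19% and 1.15% of all genes tested did. An unadjusted edgeR p under 0.05 was found for 6 of the 76, beside 8.64% of all genes. Of these, 5 were lower and 1 was higher in mutants, beside 4.93% and 3.71% of all genes. The groups did not overlap for 12 genes (15.8%), close to the 14.4% of all genes, with 10 lower (13.2%, against 7.58% of all genes) and 2 higher (2.63%, against 6.85%). The median log2 fold change was -0.02.

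Feedback inhibitors and targets of FGF signalling held 5 of the 10 genes that were lower without overlap. Of 18 listed genes 17 were tested, so that these 5 are 29.4% of those tested, against 7.58% of all genes. A log2 fold change below 0 was found for 11 of the 17, beside 8520 of all 16813 genes. The median of the list was -0.17. The list was drawn up with earlier results of these data known, so that these shares are a description and were not tested. Il17rd, a membrane inhibitor of FGF signalling also called Sef, was at 51.7, 45.1 and 53.8 CPM in controls and 38.1, 40.02 and 42.1 CPM in mutants (log2 fold change -0.32, standard error 0.0904, edgeR adjusted p = 0.312). Etv4, a transcription factor that is a classical target of FGF signals, was at 17.3, 12.7 and 13.9 CPM in controls and 11.1, 11.7 and 11.1 CPM in mutants (log2 fold change -0.38, standard error 0.131, edgeR adjusted p = 0.455). Dusp5, Spred1 and Ccnd1 were the other 3 without overlap, at log2 fold changes of -0.33, -0.16 and -0.18. Spred1 and Ccnd1 were named after their values were seen. Other classical targets overlapped, among them Dusp6 at 0.15, Etv5 at -0.17, Spry1 at 0.03 and Spry4 at -0.17, so that members of the list did not share a direction.

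Among heparan sulfate proteoglycans and the enzymes that build their chains, on which FGFs depend to bind their receptors, 19 genes were tested and the median log2 fold change was 0.06. Sdc3, a membrane proteoglycan of the growth plate, was between 194 and 224 CPM in controls and higher in every mutant (log2 fold change 0.26, standard error 0.0884, edgeR adjusted p = 0.444). Gpc2 was also higher without overlap (log2 fold change 0.30, edgeR adjusted p = 0.652), and its value is uncertain because overlapping gene entries share the name. In the signal relay 21 genes were tested, with a median of -0.03. The adaptor Shc1 was lower without overlap (-0.19, standard error 0.0740, edgeR adjusted p = 0.509), and Stat3, a transcription factor activated by cytokine and growth factor receptors, had a log2 fold change of 0.18 (edgeR adjusted p = 0.652).

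**Figure D5:**
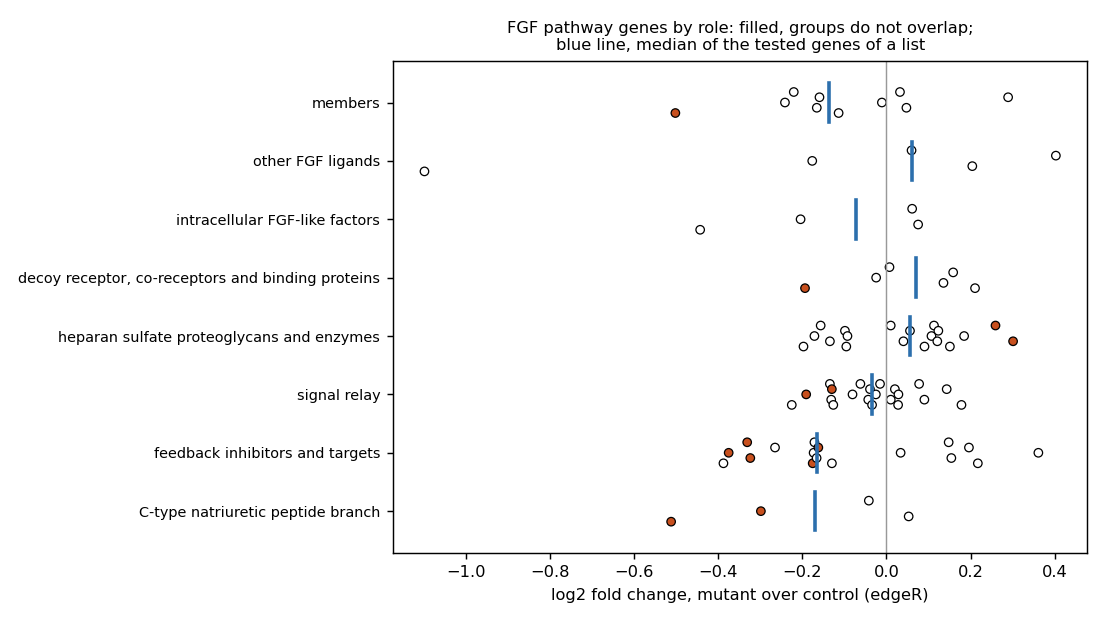
Log2 fold changes, mutant minus control, of the 76 tested pathway genes and the 10 members, grouped by list. Each point is 1 gene, filled points mark genes whose groups do not overlap, and blue lines are medians. Feedback inhibitors and targets hold 5 such genes, all below 0, and the 2 such genes among heparan sulfate genes are above 0.

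Decoy receptor, co-receptors and binding proteins gave 6 tested genes of 8 listed. Fgfrl1, a receptor without a kinase domain, was abundant at 84.1 to 129 CPM, with a log2 fold change of 0.14 (edgeR adjusted p = 0.870). Flrt3, a membrane partner of FGF receptors, was lower without overlap (-0.19, edgeR adjusted p = 0.725). In the C-type natriuretic peptide branch, Npr3, the clearance receptor, was at 6.78 to 13.0 CPM and lower without overlap (log2 fold change -0.51, standard error 0.153, edgeR adjusted p = 0.360). Nppc, which encodes the peptide, was also lower without overlap (-0.30, standard error 0.217, edgeR adjusted p = 0.780), but by a narrow margin. Its lowest control was at 3.33 CPM (102 counts) and its highest mutant at 3.29 CPM (81 counts). Npr3 and Nppc are 2 of the 4 tested genes of that list (50%, against 7.58% of all genes), and the list median was -0.17. A share of 4 genes, listed with earlier results of these data known, says little. Npr2 and Prkg2 overlapped, at log2 fold changes of -0.04 and 0.05.

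The other FGF ligands were scarce or below detection. Of 13 listed, 5 were tested, with Fgf6 at 4.79 to 8.45 CPM and Fgf1 at 5.77 to 7.23 CPM as the most abundant. The 2 with the lowest p were Fgf5 (log2 fold change -1.10, 95% interval -2.29 to 0.09, edgeR adjusted p = 0.628), at 0.339 to 2.15 CPM, and Fgf16 (0.40, edgeR adjusted p = 0.762). Fgf3, Fgf8, Fgf17, Fgf21, Fgf22 and Fgf23 did not exceed 16 counts in any library and were not tested. Fgf15 and Fgf20 had 0 counts in all 6 libraries, which allows a level of up to 0.0979 to 0.127 CPM. The intracellular FGF-like factors, which are not secreted, gave 4 tested genes, the 2 with the lowest p being Fgf14 (-0.44, edgeR adjusted p = 0.699) and Fgf12 (-0.20, edgeR adjusted p = 0.872).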

How the data were processed

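The authors deposited raw counts, the number of reads on each gene in each library, with no scaling. According to the submitters' processing notes and the study's methods, reads from a stranded mRNA kit were trimmed with Trim Galore 0.6.4, mapped to GRCm38 with STAR 2.6.1d and counted on exons with featureCounts 1.6.4. Strand was ignored in counting, and reads that mapped to several places or overlapped several genes were left out. The labels give the age as E18.5, which was used here, although their text on animal care names an adult age.

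Groups and replicate numbers came from the sample labels. The controls were littermates, and the study fitted litter with genotype. No label names a litter, so that genotype alone was fitted here and differences between litters stay in the error. Nothing states that each library is a separate animal, and p-values measure only the spread between these libraries, which may be partly technical. Replicates of a group differed beyond counting noise (chi-square over its degrees of freedom 11.7 to 45.9), so no libraries were merged as a single library deposited again. This does not show that they came from separate animals.

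Genes were tested in R 4.3.3 by edgeR 4.0.16 with filterByExpr (minimum count 10, minimum total count 15), TMM factors (0.964 to 1.02) and the two-sided quasi-likelihood test on genotype alone, over 16813 genes with Benjamini-Hochberg adjustment. The common biological coefficient of variation was 0.131. CPM used TMM-scaled totals, and RPKM divided CPM by the exon length given in the count files. Alternatives were DESeq2 1.42.0, limma-voom (limma 3.58.1), upper-quartile factors, other low-count filters, the replicate number as a block, a Y-linked covariate and each library left out in turn. On simulated counts of 16813 genes, edgeR recovered 83 of 100 genes changed 2-fold and 97 of 100 changed 4-fold, with 9 false calls. No change smaller than 2-fold was simulated, so that recovery at the estimates of the 10 members, all smaller than 2-fold, was not measured. Every simulated gene was given the common coefficient of variation. Those of Fgfr3 (0.216), Fgf10 (0.230) and Fgfr4 (0.251) were higher, so that recovery of such genes was not measured.

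The members and lists were chosen with earlier results of these data known. The genes named are the members, the 2 pathway genes with the lowest p in each list, any called pathway gene, the nearest gene of each member in pattern, Col2a1, Acan, Sox9, Col10a1 and Idh1. Other genes, among them Col1a1, Tnmd, Thbs4, Krt5 and the skin genes other than Krt10, the blood genes other than Hba-a1, Pax7, Dusp6, Etv5, Spry4, Spred1, Ccnd1, Npr2, Prkg2 and the scarce ligands, were named after their values were seen. Promoter sequence came from RefSeq. Figures were drawn with matplotlib 3.10.9. Protein sequence was not used here.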

Additional observations from a re-analysis of the deposited data

How the results depend on the processing

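The number of all genes called was 32 by edgeR and depended on the processing: it was 194 with DESeq2, 259 with no low-count filter, 19 with limma-voom, 4 with a Y-linked covariate and 3 to 17 when 1 library was left out. Same-numbered libraries of the 2 groups showed little correlation in their deviations from the group mean (-0.13, 0.01 and -0.10 over genes). With 3 libraries a group this cannot decide whether replicate numbers follow litters. With the replicate block 3 genes were called by edgeR and 89 by DESeq2. Of the 10 FGF genes, 0 were called in every setting but that with no low-count filter, where 1 was (Fgf18). With the block, Fgf18 had a log2 fold change of -0.51 (edgeR adjusted p = 0.355). None of the 76 other pathway genes was called in any setting.

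Over 8 settings, log2 fold changes of the 10 genes reversed in 2 of 80 values, to 0.0429 for Fgfr4 with the Y-linked covariate and to 0.0017 for Spry2 with upper-quartile factors. Of 60 values with 1 library left out 8 reversed. The ranges were -0.0105 to 0.0853 for Fgfr1, -0.44 to 0.20 for Fgfr4, -0.21 to 0.0024 for Fgf2, -0.0485 to 0.12 for Fgf9, -0.53 to 0.0317 for Fgf10 and -0.0625 to 0.0657 for Spry2. The cause was not tested. For Fgfr2 the range was -0.36 to -0.11. With the Y-linked covariate Fgf10 was at -0.58 and Fgfr2 at -0.10. With 3 libraries a group the precision is that of the intervals given, and low counts limit the rarer ligands.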
